A study of Mus musculus with 6 samples.

Results

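Acute-phase and IL-1 inflammatory genes were examined in FAPs, the fibro/adipogenic progenitors of muscle, which are stromal cells able to form fibroblasts and fat cells. The set had 8 genes named by function: Saa3, Lcn2, Hp, C3, Il1b, Nos2, Ptgs2 and Ptx3. A gene was measured where the platform annotation gave a probe set exactly 1 symbol, and this held for 7 of the 8, each with 1 probe set. C3 was not analysed here. The 7 are a small part of the 19938 genes with a named probe set, and all 7 passed the filter on low values that left 14953 genes for testing. Saa3 was chosen by its measured level, which was low with one reagent and high with the other, and the question was whether the other members, named with earlier results of these data known, followed it on each array. Those Saa3 values, and the members' values in the comparison between the reagents, are therefore given as a description without a test.

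All cells came from male wild-type C57BL/6 mice of 8 to 12 weeks whose tibialis anterior muscles had been injected with 30 µL of 50% glycerol, an injury followed by fat and scar formation. On day 3 after injury the muscles received a vivo-morpholino (VMO), a synthetic oligomer that enters cells of the living animal and masks a matching RNA site, and FAPs were isolated 2 days later. The groups received VMOs against polyadenylation sites (pA-VMO), a VMO masking a 5' splice site (5'ss-VMO) or a control VMO, with 2 arrays each. The series title names intronic polyadenylation of PDGFRα, the receptor of a growth factor that drives FAPs. Every animal carried the injury and an oligomer, so no array shows uninjured or uninjected muscle. Each array held RNA of cells pooled from 4 mice, and the number of arrays limits the precision.

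IL-1β is a cytokine that is made as an inactive precursor, cleaved by caspase-1 in the inflammasome, and bound by a receptor that signals through MyD88 and IRAK kinases to NF-kappaB. In stromal cells such signals induce secreted acute-phase proteins together with the enzymes that make prostaglandins and nitric oxide. Acute-phase proteins are best known from liver, where C/EBP factors, STAT3 and NF-kappaB switch on their genes, but fibroblasts make several of them as well.

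Levels below are the authors' log2 values, in which a difference of 1 is a factor of 2, and levels of different genes are not compared because their probes differ. The FAP gene Pdgfra, the receptor itself, and 18 other FAP markers were all above the filter floor of 5.21, with Col1a1 between 13.07 and 13.18 on the 6 arrays. Replicate arrays differed with an SD over genes of 0.124 with pA-VMO, 0.129 with 5'ss-VMO and 0.13 with control VMO. Tests are two-sided tests in limma with Benjamini-Hochberg adjustment over all 14953 genes. An exact permutation of 2 against 2 arrays could not give a p below 0.333. In these pooled samples, fewer cells of a type and less RNA per cell cannot be told apart.

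Saa3 encodes serum amyloid A3, the member of that acute-phase family that is made outside the liver, by stromal cells, adipocytes and macrophages. In the GRCm38.p6 build the gene spans bases 46711998 to 46719615 of chromosome 7. Its log2 level was 7.30 and 7.54 on the pA-VMO arrays, 8.78 and 8.93 on the 5'ss-VMO arrays, and 8.02 and 8.60 on the control arrays. The groups did not overlap and lay in the order pA-VMO, control, 5'ss-VMO, but the control arrays were 0.58 apart, more than the 0.18 that separated the higher control array from the lower 5'ss-VMO array.

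Saa3 with pA-VMO differed from 5'ss-VMO by -1.43 ± 0.16 (log2, SE, n = 2 arrays per group), which is 2.70-fold lower and the most negative of the 14953 differences between the reagents. Against control the difference was -0.89 ± 0.16 in the pA-VMO group and 0.54 ± 0.16 in the 5'ss-VMO group, both with the same SE because the groups share 1 estimate of the spread. These 2 comparisons use the same control arrays. Without control replicate 1 the 2 differences were -1.18 and 0.25, and without control replicate 2 they were -0.60 and 0.83, so the size of the 5'ss-VMO side depended on which control array was kept.

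Lcn2 encodes lipocalin-2, a secreted protein that binds bacterial siderophores and so withholds iron, and lies on chromosome 2 from 32384637 to 32387739. Its log2 level was 7.16 and 7.18 on the pA-VMO arrays, 7.89 and 7.77 on the 5'ss-VMO arrays, and 7.60 and 8.05 on the control arrays. Both pA-VMO arrays lay below every other array, while the 5'ss-VMO arrays lay between the 2 control arrays. Lcn2 thus shared the low side of the Saa3 pattern and not the high side.

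The pA-VMO level of Lcn2 differed from control by -0.65 ± 0.13 (log2, SE, n = 2), a difference that did not pass the test (limma adjusted p = 0.204; 0.031 to 0.43 over the alternatives). It was the sixth lowest of all 14953 differences in that comparison, and it was -0.88 without control replicate 1 and -0.42 without control replicate 2. With 5'ss-VMO the difference from control was 0.004 ± 0.126 with a 95% interval of -0.28 to 0.29 (limma adjusted p = 0.995), and it was -0.22 without control replicate 1 and 0.23 without control replicate 2. Between the reagents Lcn2 differed by -0.65 ± 0.13, 1.57-fold lower with pA-VMO than with 5'ss-VMO.

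Hp encodes haptoglobin, the plasma protein that captures free haemoglobin, on chromosome 8 from 109575128 to 109579172. Its level was 8.71 and 8.55 on the pA-VMO arrays, 8.87 and 8.89 on the 5'ss-VMO arrays, and 8.65 and 8.92 on the control arrays. The pA-VMO arrays lay below the 5'ss-VMO arrays, and both groups overlapped the range of the controls. Hp differed from control by -0.15 ± 0.10 with pA-VMO (95% interval -0.37 to 0.07, limma adjusted p = 0.588), and the difference in the 5'ss-VMO group was 0.09 ± 0.10 (-0.12 to 0.31, limma adjusted p = 0.704). Without control replicate 1 these were -0.29 and -0.04, and without control replicate 2 they were -0.016 and 0.23. Between the reagents the difference was -0.24 ± 0.10.

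Nos2 encodes the inducible nitric oxide synthase, a classical NF-kappaB and interferon target, on chromosome 11 from 78920787 to 78960226. Its level was 6.16 and 6.27 on the pA-VMO arrays, 6.65 and 6.79 on the 5'ss-VMO arrays, and 6.71 and 6.48 on the control arrays. As for Lcn2, both pA-VMO arrays were the lowest of the 6, and the 5'ss-VMO arrays overlapped the controls. Nos2 differed from control by -0.38 ± 0.09 with pA-VMO (limma adjusted p = 0.251; 0.108 to 0.508 over the alternatives), and the difference in the 5'ss-VMO group was 0.12 ± 0.09 (95% interval -0.09 to 0.33, limma adjusted p = 0.597). The last value was 0.24 without control replicate 1 and 0.0057 without control replicate 2. Between the reagents it differed by -0.50 ± 0.09, 1.42-fold lower with pA-VMO.

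**Figure D1:**
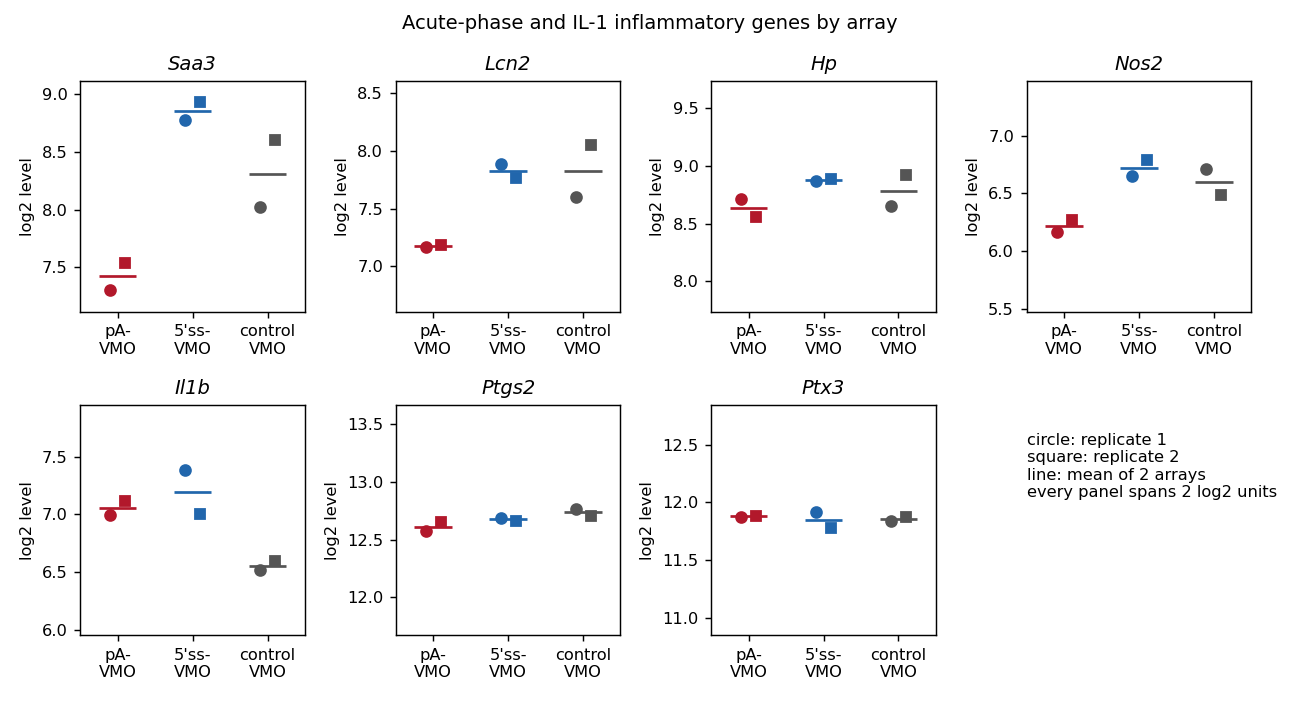
Log2 level of each of the 7 measured genes (vertical axis, every panel spanning 2 log2 units) on the 2 pA-VMO, 2 5'ss-VMO and 2 control arrays, with replicate 1 as a circle, replicate 2 as a square and the mean as a line. Saa3, Lcn2, Nos2 and Ptgs2 have both pA-VMO arrays lowest, Ptgs2 within a span of 0.19 over all arrays, Il1b has both control arrays lowest, and Ptx3 spans 0.14.

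Il1b, the gene of the cytokine IL-1β, lies on chromosome 2 from 129364569 to 129371164 and had another order. Its level was 6.991 and 7.111 on the pA-VMO arrays, 7.385 and 7.003 on the 5'ss-VMO arrays, and 6.51 and 6.60 on the control arrays. All 4 arrays of the 2 reagents lay above both controls, and the reagents overlapped each other. The level with pA-VMO was thus above control, where that of Saa3 was below it.

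Il1b differed from control by 0.50 ± 0.11 with pA-VMO (log2, SE, n = 2; 1.41-fold, limma adjusted p = 0.235; 0.0716 to 0.487 over the alternatives). With 5'ss-VMO it differed by 0.64 ± 0.11 (1.56-fold) and missed the threshold (limma adjusted p = 0.0524; 0.00664 to 0.234 over the alternatives). It passed in 5 of 13 alternatives, among them the fit without 5'ss-VMO replicate 2, where the difference was 0.83 (limma adjusted p = 0.0279). Between the reagents Il1b differed by -0.14 ± 0.11, a value that was 0.05 when 5'ss-VMO replicate 1 was left out and -0.33 when replicate 2 was.

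Ptgs2, also called COX-2, is the inducible enzyme that starts prostaglandin synthesis, and its gene lies on chromosome 1 from 150100031 to 150108234. Its level was 12.57 and 12.65 on the pA-VMO arrays, 12.69 and 12.66 on the 5'ss-VMO arrays, and 12.77 and 12.71 on the control arrays. Ptgs2 differed from control by -0.13 ± 0.07 with pA-VMO (95% interval -0.27 to 0.02, limma adjusted p = 0.513), and the difference in the 5'ss-VMO group was -0.06 ± 0.07 (-0.21 to 0.09, limma adjusted p = 0.728). The controls were highest, so the gene shared only the low pA-VMO level with Saa3, at a small size.

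Ptx3 encodes the long pentraxin PTX3, a pattern-recognition protein that stromal and myeloid cells release in response to IL-1, and lies on chromosome 3 from 66219887 to 66225806. Its level was 11.87 and 11.89 on the pA-VMO arrays, 11.92 and 11.78 on the 5'ss-VMO arrays, and 11.84 and 11.87 on the control arrays. The 3 groups overlapped one another. Ptx3 differed from control by 0.02 ± 0.07 with pA-VMO (95% interval -0.14 to 0.18, limma adjusted p = 0.945), and the difference in the 5'ss-VMO group was -0.01 ± 0.07 (-0.17 to 0.15, limma adjusted p = 0.965). Both Ptgs2 and Ptx3 lay near the top of the value range, which ended at 13.5.

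**Figure D2:**
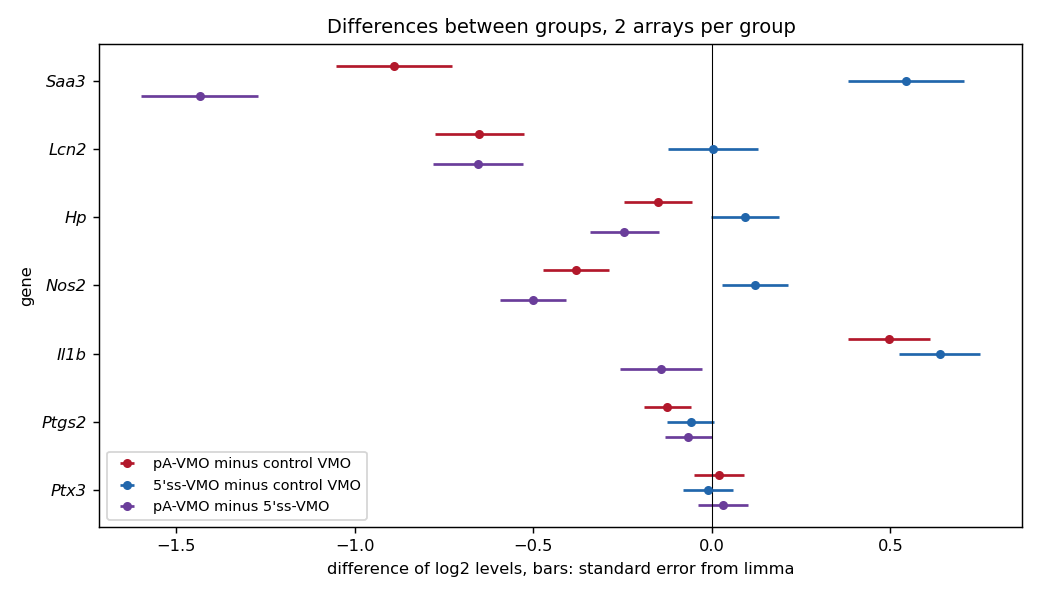
Difference of log2 levels (horizontal axis) with its standard error from limma for each of the 7 genes and 3 comparisons, 2 arrays per group. The pA-VMO minus control differences run from -0.89 (Saa3) to 0.50 (Il1b), and the 5'ss-VMO minus control differences from -0.06 (Ptgs2) to 0.64 (Il1b).

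Of the 6 members other than Saa3, 0 were called in pA-VMO against control and 0 in 5'ss-VMO against control in limma. At an unadjusted p under 0.05 there were 3 in the first comparison (Lcn2 and Nos2 lower, Il1b higher), where 11.4% of all genes were. In the second there was 1 (Il1b, higher), where 13.9% were. At the adjusted threshold 0.00669% of all genes were called in the first comparison and 0.582% in the second, so few genes of any kind passed. Between the reagents, 4 of the 6 (Lcn2, Hp, Nos2 and Ptgs2) had both pA-VMO arrays below both 5'ss-VMO arrays, as did 23.7% of all genes, and nothing is read from this count because the comparison guided the choice of the genes. Relative to control, 1 of the 6 (Il1b) lay above both controls on both 5'ss-VMO arrays, where 23.2% of all genes did. With pA-VMO, 3 of the 6 (Lcn2, Nos2 and Ptgs2) lay below both controls on both arrays, as did 2808 of all 14953 genes. On the same arrays 1 (Il1b) lay above both controls, as did 3608 genes. Against control, the 6 had a median difference of -0.14 in the pA-VMO group and of 0.05 in the 5'ss-VMO group, where the medians over all genes were 0.013 and 0.001. The comparisons with control share their reagent arrays with the comparison that guided the choice. Their counts and medians are therefore not independent of that choice and are given as a description.

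On single arrays, the resemblance to Saa3 was graded. As a measure of likeness, Pearson's r with Saa3 over the 6 arrays, which fall into 3 groups and are thus not 6 independent points of 1 population, was 0.911 for Lcn2, 0.83 for Hp and 0.827 for Nos2. It was 0.481 for Ptgs2, 0.074 for Il1b and -0.281 for Ptx3. Among the 14953 genes 133 had a higher r than Lcn2, 428 a higher r than Hp and 442 a higher r than Nos2, so the likeness was not confined to these genes. The 3 genes differed in size: over the 6 arrays Saa3 spanned 3.09-fold, Lcn2 1.85-fold, Nos2 1.54-fold and Hp 1.29-fold. In Saa3, Lcn2 and Hp the second control array was the higher, by 0.58, 0.45 and 0.27, and in Nos2 it was the lower by 0.23.

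Genes most like Saa3 were sought among 19 others whose arrays spanned at least 1 on the log2 scale. The 6 with the highest r were Mir300 (0.891), a microRNA gene, Snord57 (0.83), a small nucleolar RNA, the interferon-inducible DNA sensors Ifi208 (0.732) and Ifi206 (0.576), the guanylate-binding protein gene Gbp4 (0.683) and Gm14636 (0.621). Lcn2, with a span of 0.89, was outside this search. Without the limit on the span, 180 genes had a higher r than Mir300 and 2029 a higher r than Ifi206. Mir300 was below the filter floor on pA-VMO replicate 1, at 4.92. Ifi208 had log2 levels of 6.37 and 6.59 on the pA-VMO arrays, 7.70 and 7.87 on the 5'ss-VMO arrays, and 6.56 and 6.38 on the control arrays. It therefore matched the high 5'ss-VMO side of the pattern and not the low pA-VMO side, the reverse of Lcn2.

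Promoter sequences were available for 5 of the 7 measured genes (RefSeq, GRCm38.p6), not for Hp and Nos2. The 250 bases before the annotated start were searched for letters recognised by C/EBP factors and NF-kappaB, not for those of STAT3. The sequences are shown because Saa3 and Lcn2, which shared the low pA-VMO level, and Ptgs2 and Ptx3, which varied little, can then be set side by side. The C/EBP core was TTGCNNAA and the NF-kappaB pattern GGGNNNNNCC, both searched on both strands. The C/EBP core was found in 9.56% of all 32851 promoters and the NF-kappaB pattern, which is loose, in 45.8%. Matches are in capitals, with up to 25 bases on each side, read 5′ to 3′ on the strand of the gene, and no match shown overlaps another.
Saa3, C/EBP core on the opposite strand, chr7:46715743-46715800, minus strand: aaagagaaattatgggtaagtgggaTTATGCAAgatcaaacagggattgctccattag
Lcn2, C/EBP core, chr2:32387923-32387980, minus strand: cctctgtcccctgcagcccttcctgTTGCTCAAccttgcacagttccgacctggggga
Lcn2, NF-kappaB pattern on the opposite strand, chr2:32387807-32387866, minus strand: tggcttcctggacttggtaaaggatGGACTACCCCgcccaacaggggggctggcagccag
Ptgs2, C/EBP core on both strands, chr1:150099937-150099994, plus strand: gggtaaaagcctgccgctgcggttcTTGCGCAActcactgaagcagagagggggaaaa
Ptgs2, NF-kappaB pattern, chr1:150099983-150100030, plus strand: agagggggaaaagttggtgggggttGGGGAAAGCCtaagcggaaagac
Ptx3, C/EBP core on the opposite strand, chr3:66219805-66219862, plus strand: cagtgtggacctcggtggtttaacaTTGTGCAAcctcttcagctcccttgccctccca

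The C/EBP core was present both in Saa3 and Lcn2 and in Ptgs2 and Ptx3, and the windows of Lcn2 and Ptgs2 also held the NF-kappaB pattern. With so few genes, no promoter for Hp and Nos2 and a loose NF-kappaB pattern, nothing is read from these letters about the levels. Positions are counted from the transcript start in the RefSeq promoter table. For Saa3 that start is base 46715676 and for Il1b base 129371139, both inside the gene spans given above, and for the other 3 genes it is the 5′ end of the span. In Saa3 the core began 99 bases before that start, in Lcn2 216, in Ptgs2 69 and in Ptx3 57. The Il1b window held neither pattern but a TATA box (TATAAA on the transcribed strand, present in 7.59% of promoters) that began 31 bases before the start:
Il1b, chr2:129371140-129371195, minus strand: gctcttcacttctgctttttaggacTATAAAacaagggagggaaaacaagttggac
A match is a description of the sequence only, and binding was not measured.

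Around the members, 9 lists of pathway genes with 195 genes in all were examined, of which 174 had a named probe set and 141 were tested. Over these 9 lists 1 gene was called in any comparison. The counts at an unadjusted p under 0.05 given for each list stand beside 11.4% of all genes in pA-VMO against control, 13.9% in 5'ss-VMO against control and 15.9% in pA-VMO against 5'ss-VMO. Il18bp, which encodes a decoy that neutralises the IL-1 relative IL-18, rose by 0.39 ± 0.07 with 5'ss-VMO against control (log2, SE, n = 2; limma adjusted p = 0.0474). Its log2 level was 7.42 and 7.47 on the pA-VMO arrays, 7.81 and 7.80 on the 5'ss-VMO arrays, and 7.47 and 7.37 on the control arrays. Both 5'ss-VMO arrays stood above the other 4. The call held in 4 of 13 alternatives (limma adjusted p from 0.00891 to 0.229), and it was lost in each of the 6 fits that left out 1 array and with the replicate number as a block (limma adjusted p = 0.0653).

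Other acute-phase proteins gave smaller differences than Saa3, which was itself chosen by its measured level. Of the 25 listed genes 12 were tested and 0 were called in any comparison (limma), with 4, 2 and 1 at an unadjusted p under 0.05 in pA-VMO against control, 5'ss-VMO against control and pA-VMO against 5'ss-VMO, beside 11.4%, 13.9% and 15.9% of all genes. Their median differences were -0.05, -0.10 and 0.02 in the same order. Cp, the copper carrier ceruloplasmin, had 9.02 and 8.98 with pA-VMO against 9.24 and 9.15 with 5'ss-VMO, a difference of -0.20 ± 0.07 (limma adjusted p = 0.206). Its control arrays, at 9.33 and 9.32, were the highest. Serpina3n, a secreted protease inhibitor, lay 0.14 ± 0.07 higher with pA-VMO than with 5'ss-VMO (limma adjusted p = 0.323), and the fibrinogen chain gene Fgb 0.15 ± 0.07 higher (limma adjusted p = 0.324). The close relatives of Saa3, which the naming rule did not pick, were below the floor on every array: Saa1 lay between 3.32 and 3.81 and Saa2 between 4.16 and 4.48.

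Among IL-1 family ligands and receptors 9 of 22 listed genes were tested. In pA-VMO against control 0 were called (limma, 1 at an unadjusted p under 0.05), in 5'ss-VMO against control Il18bp alone was called (0.582% of all genes), and between the reagents 0 were called (limma, 1 at an unadjusted p under 0.05, where 0.0602% of all genes were called). Il1rn, the gene of the IL-1 receptor antagonist, is named here after its values were seen, because it had the order of Il1b. It was at 6.99 and 7.04 on the pA-VMO arrays, 6.87 and 7.11 on the 5'ss-VMO arrays, and 6.62 and 6.78 on the control arrays. Neither its difference from control with pA-VMO of 0.32 ± 0.09 (limma adjusted p = 0.291) nor that with 5'ss-VMO of 0.29 ± 0.09 (limma adjusted p = 0.233) passed the test. Il1a, the sister cytokine, was below the floor on all arrays, at 4.24 to 4.82.

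The inflammasome and the signal path behind the IL-1 receptor had 13 of 18 genes tested, and 0 were called in any of the 3 comparisons (limma, 2 at an unadjusted p under 0.05 in each). The inflammasome sensors Nlrp3, Nlrc4, Aim2 and Mefv had means below the floor. Traf6, the ubiquitin ligase that passes the IL-1 signal on, was at 7.52 and 7.64 on the pA-VMO arrays, 7.89 and 7.87 on the 5'ss-VMO arrays, and 7.88 and 7.87 with control VMO. Its difference between the reagents was -0.30 ± 0.07 (limma adjusted p = 0.0991; 0.0452 to 0.375 over the alternatives). The adaptor gene Myd88 differed by -0.20 ± 0.06 (limma adjusted p = 0.189) and the inflammatory caspase gene Casp4 by -0.15 ± 0.07 (limma adjusted p = 0.346). For Traf6 both pA-VMO arrays were the lowest of the 6, as for Saa3.

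Of 36 listed genes of NF-kappaB, its inhibitors and its targets 33 were tested, and 0 were called in any of the 3 comparisons. At an unadjusted p under 0.05 in limma there were 4 in pA-VMO against control, 2 in 5'ss-VMO against control and 9 in pA-VMO against 5'ss-VMO, where 11.4%, 13.9% and 15.9% of all genes were. Between the reagents 24 of the 33 differences were negative with a median of -0.08, where 7260 of all 14953 were negative with a median of 0.004. This is the comparison that guided the choice of the members. Against control, 18 of 33 were negative with pA-VMO (median -0.02), and 28 of 33 were positive with 5'ss-VMO (median 0.07), of which 17 had 5'ss-VMO arrays that did not overlap the controls, where 23.2% of all genes did. Macrophage and myoblast markers, described below, were lower with pA-VMO than with 5'ss-VMO for 11 of 18 and 10 of 10 genes (medians -0.10 and -0.19), and their part was not tested. In 17 of the 33 both pA-VMO arrays were below both 5'ss-VMO arrays, against 23.7% of all genes. The cytokine Il6 was at 10.66 and 10.56 on the pA-VMO arrays, 10.98 and 10.88 on the 5'ss-VMO arrays, and 10.72 and 10.87 with control VMO. The difference of Il6 between the reagents was -0.33 ± 0.08 (limma adjusted p = 0.113; 0.0209 to 0.343 over the alternatives). The apoptosis inhibitor gene Birc3 differed by -0.27 ± 0.07 (limma adjusted p = 0.138) and Tnfaip3, the gene of the feedback inhibitor A20, by -0.23 ± 0.07 (limma adjusted p = 0.171).

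Genes of IL-6 type and C/EBP signalling had 16 of 17 tested, with 0 called in any comparison (limma, 0, 0 and 2 at an unadjusted p under 0.05, the last between the reagents) and median differences of 0.01, -0.01 and 0.01. Between the reagents the cytokines Osm and Il11 lay 0.23 ± 0.10 and 0.23 ± 0.11 higher with pA-VMO (limma adjusted p = 0.289 and 0.334), and the myeloid factor gene Cebpe 0.21 ± 0.09 higher (limma adjusted p = 0.289). The acute-phase transcription factor genes Cebpb, Cebpd and Stat3, which the naming rule did not pick, differed between the reagents by 0.05, -0.07 and -0.04.

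The list of complement genes, the cascade to which C3 belongs, had 16 of 27 tested and 0 called in any comparison, with 7, 5 and 7 at an unadjusted p under 0.05 (limma, in the order pA-VMO against control, 5'ss-VMO against control, pA-VMO against 5'ss-VMO, where 11.4%, 13.9% and 15.9% of all genes were). This list left out the complement genes C1qa and C1qc. They were counted among the macrophage markers below, and both were called higher with 5'ss-VMO than with control VMO. C2, a subunit of the enzyme that cleaves C3, had log2 levels of 9.09 and 9.10 on the pA-VMO arrays, 9.53 and 9.42 on the 5'ss-VMO arrays, and 9.33 and 9.39 on the control arrays. The 3 groups of C2 did not overlap and had the order of Saa3. Its difference between the reagents was -0.38 ± 0.07 (limma adjusted p = 0.0687; 0.00693 to 0.264 over the alternatives). The other 2 genes with the smallest p, C8g and the mannose-binding lectin gene Mbl2, lay higher with pA-VMO than with 5'ss-VMO, by 0.31 ± 0.10 and 0.20 ± 0.07 (limma adjusted p = 0.198 and 0.209).

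Prostanoid genes, downstream of Ptgs2, had 22 of 23 tested and 0 called in any comparison (limma, 2, 3 and 6 at an unadjusted p under 0.05, in the same order). Between the reagents 17 of 22 differences were positive, with a median of 0.07, where 7693 of all 14953 were positive, with a median of 0.004. In 13 of the 22 both pA-VMO arrays were above both 5'ss-VMO arrays, as for 3810 of all genes, and in 3 they were below. Both 5'ss-VMO arrays lay below both controls for 11 of the 22, as for 3218 of all genes, and above them for 1. Slco2a1, which encodes the prostaglandin transporter, was at 8.63 and 8.84 on the pA-VMO arrays, 8.17 and 8.42 on the 5'ss-VMO arrays, and 8.57 and 8.35 with control VMO, and differed between the reagents by 0.44 ± 0.11 (limma adjusted p = 0.124; 0.0426 to 0.378 over the alternatives). The prostaglandin D synthase gene Hpgds differed by -0.33 ± 0.11 (limma adjusted p = 0.207), but did not pass the filter on low values when either 5'ss-VMO array was left out. The receptor gene Ptger3 differed by 0.23 ± 0.09 (limma adjusted p = 0.246).

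Nitric oxide and arginine genes, the surroundings of Nos2, had 10 of 13 tested and 0 called in any comparison (limma, 1, 2 and 4 at an unadjusted p under 0.05, in the same order). Arg1, whose enzyme competes with nitric oxide synthase for arginine, was at 5.48 and 5.26 on the pA-VMO arrays, 5.153 and 4.996 on the 5'ss-VMO arrays, and 5.38 and 5.41 with control VMO. Its difference between the reagents was 0.30 ± 0.09 (limma adjusted p = 0.172), opposite in sign to that of Nos2. Arg2, the mitochondrial arginase gene, differed by 0.21 ± 0.08 (limma adjusted p = 0.26) and Asl, of arginine synthesis, by 0.18 ± 0.06 (limma adjusted p = 0.237).

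Partners of lipocalin-2 and haptoglobin in iron and haem handling had 10 of 14 tested and 0 called in any comparison (limma, 1, 0 and 1 at an unadjusted p under 0.05, in the same order). Slc22a17, the gene of a lipocalin-2 receptor, was at 7.46 and 7.30 on the pA-VMO arrays, 7.03 and 7.16 on the 5'ss-VMO arrays, and 7.27 and 7.23 with control VMO. Its difference between the reagents was 0.29 ± 0.08 (limma adjusted p = 0.144), opposite in sign to that of Lcn2. The iron exporter gene Slc40a1 differed by -0.13 ± 0.09 (limma adjusted p = 0.496) and the haem oxygenase gene Hmox1 by 0.09 ± 0.07 (limma adjusted p = 0.541). Cd163, the macrophage receptor of haptoglobin, was below the floor on every array, at 3.97 to 4.48.

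**Figure D3:**
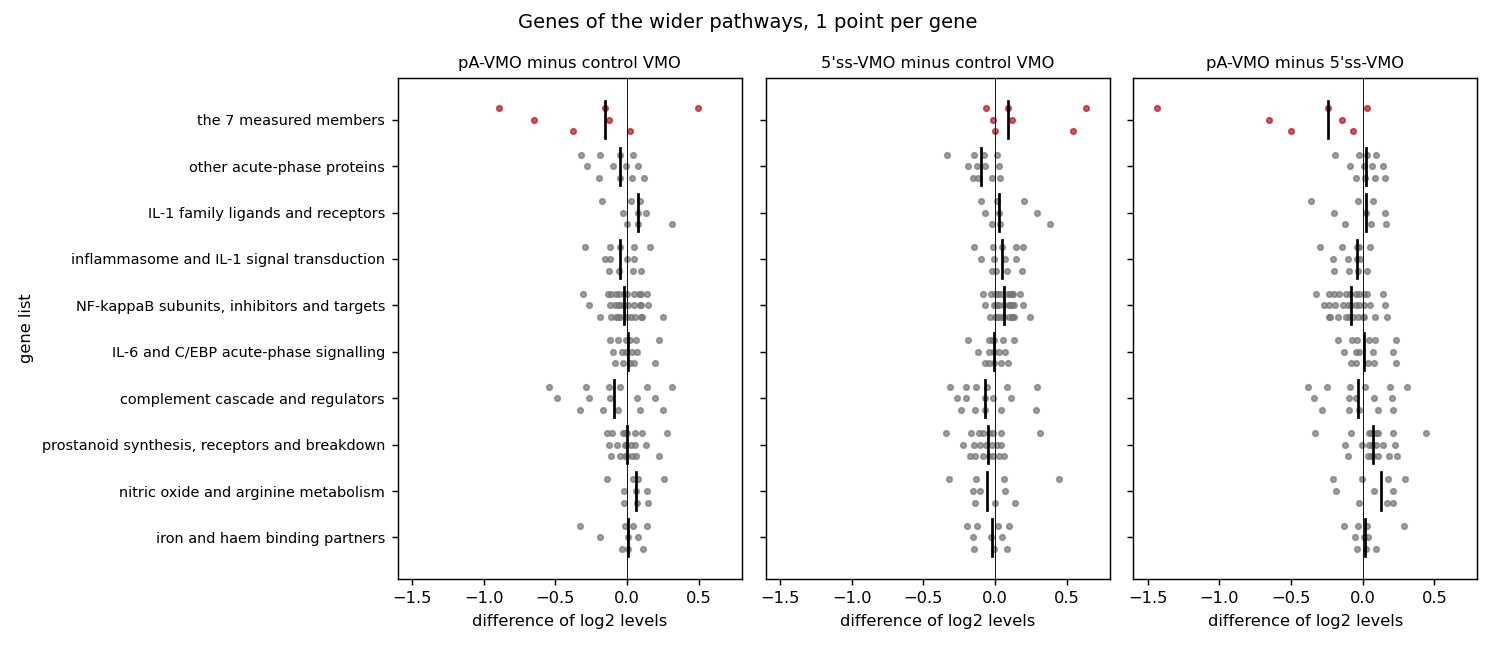
Difference of log2 levels (horizontal axis) of each tested gene in the 9 pathway lists and of the 7 measured members (red), in the 3 comparisons, with the median of each list as a black bar. Between the reagents the list of NF-kappaB genes has a median of -0.08 and the prostanoid list one of 0.07. Saa3, which was chosen by its measured level, has the most negative difference of all 14953 genes there, -1.43.

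Lcn2, Hp, Nos2 and Il1b are also made by neutrophils or macrophages, so the markers of these cells were read on the same arrays. Of 20 neutrophil markers 17 had a probe set and 9 were above the floor. The defining gene Ly6g was below it at 4.26 to 4.46 on all arrays, as was the granule gene S100a8 at 4.16 to 4.45. The summed linear level of the 17 markers was 942 to 992 with pA-VMO, 886 to 912 with 5'ss-VMO and 878 to 883 with control VMO. It was highest on the pA-VMO arrays, where Saa3, Lcn2 and Nos2 were lowest. The sum includes the markers below the floor, and 0 of the 9 tested were called in any comparison (limma). The part of neutrophils in the members' differences was not tested.

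Of 20 macrophage marker names 19 had a probe set and 18 were tested. The name without a probe set was Emr1, an older name of the listed Adgre1. With pA-VMO against control 0 of the 18 were called (limma, 7 at an unadjusted p under 0.05), with 5'ss-VMO against control the complement genes C1qa and C1qc were called, both higher (limma adjusted p = 0.0472 and 0.0249; 0.00994 to 0.227 and 0.00591 to 0.155 over the alternatives), and between the reagents 0 were called (limma, 7 at an unadjusted p under 0.05). In 5'ss-VMO against control 10 of the 18 were at an unadjusted p under 0.05 in limma. Of all genes, 11.4% were at that level in pA-VMO against control, 13.9% in 5'ss-VMO against control and 15.9% between the reagents. Both 5'ss-VMO arrays lay above both controls for 15 of the 18, as for 23.2% of all genes, and below them for 1. The summed linear level of the 19 markers was 2469 to 2538 with pA-VMO, 2659 to 2677 with 5'ss-VMO and 1970 to 2370 with control VMO. As for Il1b, all 4 arrays of the reagents lay above both controls, and as for Saa3, the 5'ss-VMO arrays lay above the pA-VMO arrays. The part of the macrophage markers in the differences of these genes was not tested. Adgre1, which encodes the macrophage antigen F4/80, was at 6.18 and 6.31 on the pA-VMO arrays, 6.57 and 6.28 on the 5'ss-VMO arrays, and 5.90 and 6.04 with control VMO. Within the control group, replicate 1 had the lower macrophage sum, with less Saa3, Lcn2, Hp and Il1b and more Nos2. Within the pA-VMO group replicate 1 had the higher sum, with more Hp and less Saa3, Lcn2, Nos2 and Il1b. Within the 5'ss-VMO group the sums were nearly equal, 2677 on replicate 1 and 2659 on replicate 2. There replicate 1 had more Lcn2 and Il1b and less Saa3, Hp and Nos2.

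Markers of other muscle cells also differed with 5'ss-VMO, where Saa3 was highest. The summed linear level of 10 satellite cell and myoblast markers was 1017 to 1064 with pA-VMO, 1238 to 1318 with 5'ss-VMO and 1009 to 1081 with control VMO. Against control all 10 were higher with 5'ss-VMO, of which Chrna1, the muscle acetylcholine receptor subunit, was called (limma adjusted p = 0.0283; 0.00371 to 0.194 over the alternatives), and all 10 were lower with pA-VMO than with 5'ss-VMO, with 0 called (limma, 4 at an unadjusted p under 0.05). The sum of 10 endothelial markers, 9 of them tested, was 749 to 777 in the pA-VMO group, 804 to 831 in the 5'ss-VMO group and 684 to 740 in the control group, with the endothelial cadherin Cdh5 called higher with 5'ss-VMO than with control VMO (limma adjusted p = 0.00551; 0.000326 to 0.0647 over the alternatives). The sum of the 19 FAP markers was 53575 to 53786 with pA-VMO, 52362 to 54355 with 5'ss-VMO and 54244 to 56560 with control VMO, and the surface peptidase gene Dpp4 was called, lower with 5'ss-VMO than with control VMO (limma adjusted p = 0.0318; 0.00398 to 0.207 over the alternatives). These 5 marker genes are named after their values were seen, and each lost its call when either control array was left out. In 5'ss-VMO against control 6 of the 10 satellite cell and myoblast markers were at an unadjusted p under 0.05 in limma. So were 5 of the 9 endothelial and 7 of the 19 FAP markers, where 13.9% of all genes were. Between the reagents that share of all genes was 15.9%. Of all 14953 genes, 7542 were higher with 5'ss-VMO than with control VMO, and 7260 were lower with pA-VMO than with 5'ss-VMO. The part of these cell types in the members' differences was not tested.

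**Figure D4:**
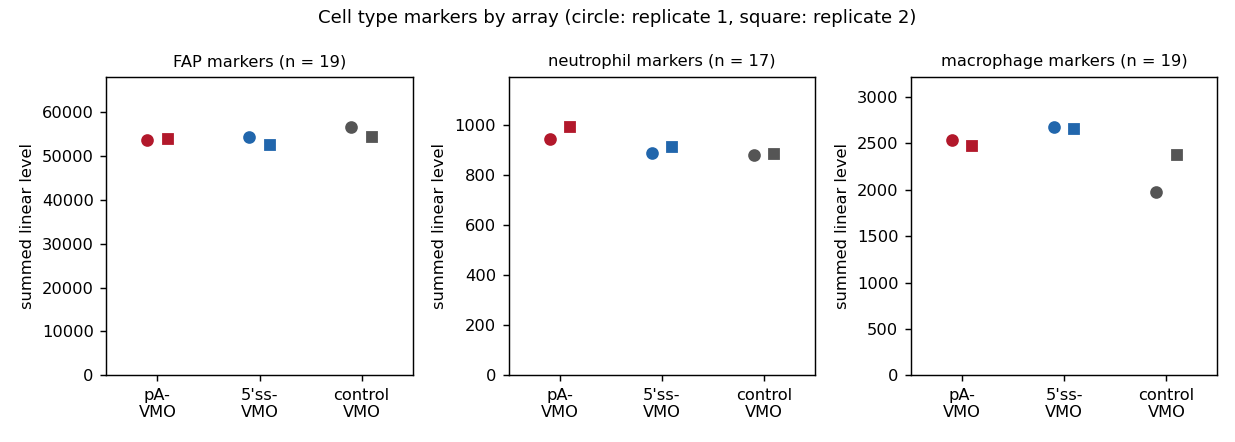
Summed linear level (vertical axis from 0) of 19 FAP, 17 neutrophil and 19 macrophage markers on each array, replicate 1 as a circle and replicate 2 as a square. The macrophage sum lies above both controls on all 4 arrays of the reagents, and the neutrophil sum is highest with pA-VMO.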

How the data were processed

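Per the labels' protocols, 100 ng of total RNA per pool was labelled as single-stranded cDNA for Affymetrix Mouse 1.0 ST arrays. Per the submitters' processing notes, the deposited log2 values were made with RMA in Affymetrix Expression Console; no source used here gives its version or settings. Because RMA equalises the distributions of arrays, a change in total RNA cannot be seen, and differences of dim probe sets are compressed. No scan date or other batch label was used here.

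Of 35556 probe sets, 21789 had 1 gene symbol, 1621 several and 12146 none in the platform annotation, and only the first were named. The probe set with the highest mean stood for a gene (999 of 19938 genes had several), and genes with a mean under the 25th percentile were left out. The 3 group means were estimated from all 6 arrays by limma 3.58.1 under R 4.3.3 (3 residual and 6.06 prior degrees of freedom), called at an adjusted p under 0.05, and the procedure was tested on simulated data. The pools of a group are separate by the labels. Deviations of same-numbered arrays from their group means correlated at -0.102, -0.035 and 0.021 between groups over genes, so no pairing by replicate number was seen over all genes. This cannot exclude a shared effect on some genes. Saa3 was higher on replicate 2 in every group, and the replicate block gave its differences an SE of 0.102 in place of 0.163.

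Named were all members, pathway genes that were called, and otherwise the 3 genes of a list with the smallest p between the reagents; exceptions are stated. The members and lists were chosen with earlier results of these data known. Alternatives were other filters, mean probe sets, a variance trend, 2-group fits, a replicate block, median centring and leaving out each array.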

Additional observations from a re-analysis of the deposited data

How the results depend on the processing

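Both the counts of called genes (limma, adjusted p) and some of the members' differences from control depended on the settings. For 5'ss-VMO against control, where 87 genes were called, the count was 24 without a filter, 181 with a filter at the 50th percentile, 265 with a robust variance trend, and 8 to 76 when 1 array was left out. For pA-VMO against 5'ss-VMO, where 9 were called (2 higher and 7 lower), it was 3, 102 and 186 in the same order, 15 with mean probe sets, 111 with arrays centred on their median (12 higher and 99 lower), 23 with the replicate block, and 1 to 17 when 1 array was left out. For pA-VMO against control, where 1 was called, it was 0 without a filter, 49 with the robust trend and 0 to 2 when 1 array was left out; crossing the pA-VMO numbers in the replicate block, chosen after seeing the data, gave 5. The causes were not tested. The sign changed for Hp with 5'ss-VMO against control (-0.041 to 0.2284 when 1 array was left out), for Lcn2 in the same comparison (-0.2223 to 0.23, with -0.0542 without 5'ss-VMO replicate 1), and for Ptx3 in it (-0.0795 to 0.0582, with 0.0042 without control replicate 2). Between the reagents it changed for Il1b (-0.3332 to 0.0483 when 1 array was left out) and Ptx3 (-0.0025 with centred arrays and -0.0381 to 0.0996 when 1 array was left out), and with pA-VMO against control for Ptx3 (-0.004 with centred arrays). Between the reagents Saa3 stayed between -1.55 and -1.31, Lcn2 between -0.71 and -0.60 and Nos2 between -0.57 and -0.43 in all 13 alternatives. The block ended the calls of Il18bp and C1qa (adjusted p = 0.0653 and 0.0571) and of no other gene named. Lcn2 with pA-VMO against control passed with the robust trend alone (adjusted p = 0.031), and C2 between the reagents with the higher filter, the robust trend and centred arrays; Il6, Slco2a1 and Traf6 passed between the reagents with the robust trend alone (adjusted p = 0.0209, 0.0426 and 0.0452). Genes near the filter floor, such as Arg1, are limited by signal over background.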
